A study of Mus musculus with 6 samples.

Results

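Salt reabsorption from the thick ascending limb onward was followed through 8 genes: Slc12a1, Kcnj1, Umod and Bsnd of the thick ascending limb, Slc12a3 and Kcnj10 of the distal convoluted tubule, and Scnn1a and Scnn1b of the aldosterone-sensitive end of the nephron. A member was taken as every exon row of the array whose annotation gave its symbol and no other. All 8 genes were found, with 107 exon rows, among 20416 genes and 212097 rows with 1 symbol. The rule goes by name, but the set was put together with earlier results of these data known.

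Kidneys were profiled on 6 arrays, 1 per sample. The 3 arrays labelled CBAxB6-TGFbeta (replicates 4, 5 and 6) carry the genotype wording CBAxB6-TGFß (KO), and the 3 labelled B6-TGFbeta (replicates 1, 2 and 3) carry B6-TGFß (WT). Renal fibrosis is given as induced in both groups, and the TGFß label is shared by all 6, so no kidney without it is present. No gene is named for the word KO, so that word and the strain background cannot be told apart. The labels speak of littermates of matched age and sex. The sources used here give no age, no sex, no batch and no promoter behind TGFß. Whether samples came from separate mice is not spelled out either, so p-values measure the spread between these samples. The study asked how mouse strains differ in their sensitivity to renal fibrosis induced by TGF-ß1, and here that comparison is described for distal salt transport.

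The thick ascending limb takes up sodium, potassium and chloride together across its apical membrane, returns potassium to the lumen through a channel, and releases chloride to the blood side, a step that needs the small protein barttin. Its cells also secrete uromodulin, the most abundant protein of normal urine. The distal convoluted tubule then takes up sodium with chloride through the thiazide-sensitive cotransporter, with a basolateral potassium channel setting the membrane voltage. In the connecting tubule and collecting duct sodium enters through the epithelial sodium channel under the control of aldosterone.

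The 6 arrays had medians of 7.27 to 7.34 (log2 intensity), and they correlated at 0.953 to 0.963 within CBAxB6-TGFbeta, 0.965 to 0.971 within B6-TGFbeta and 0.946 to 0.954 between the groups, across rows that are not independent replicates. Kidney markers were present in both groups: Lrp2, the megalin gene of the proximal tubule, averaged 11.34 in CBAxB6-TGFbeta and 12.09 in B6-TGFbeta on the log2 scale. B6-TGFbeta replicate 2 stood apart: Ucp1, a marker of brown fat, read 10.93 there in log2 intensity, with 5.68 to 6.22 in CBAxB6-TGFbeta and 5.42 and 5.13 in B6-TGFbeta replicates 1 and 3. Every difference below is CBAxB6-TGFbeta minus B6-TGFbeta on the log2 scale, and a gene was called when limma's p stayed under 0.05 after Benjamini-Hochberg adjustment across the 20416 genes. Of these, 934 (4.57%) were called lower and 628 (3.08%) higher, together 7.65%, with a median difference of 0.02.

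The transcription start regions of 3 members are shown because they span the range of the results: Slc12a3 had the largest decrease, Slc12a1 encodes the thick limb's own cotransporter, and Umod had the smallest difference. Each line is the 250 bases before the annotated start, 5′ to 3′, from RefSeq on build GRCm38.p6. Capitals mark TATAAA (the TATA box), GTTAAT (a core of HNF1 sites), AGAACA (a core of steroid receptor sites) or AGGTCA (a core of other nuclear receptor sites), each searched on both strands, with no overlap between matches here. The Slc12a3 region is chr8:94328958-94329207 on the plus strand, the Slc12a1 region chr2:125152350-125152599 on the plus strand, and the Umod region chr7:119479263-119479512 on the minus strand.
Slc12a3: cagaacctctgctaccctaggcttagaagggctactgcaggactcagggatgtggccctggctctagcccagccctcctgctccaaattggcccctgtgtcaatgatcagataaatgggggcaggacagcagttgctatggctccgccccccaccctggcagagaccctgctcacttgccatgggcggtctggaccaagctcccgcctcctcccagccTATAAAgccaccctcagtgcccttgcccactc
Slc12a1: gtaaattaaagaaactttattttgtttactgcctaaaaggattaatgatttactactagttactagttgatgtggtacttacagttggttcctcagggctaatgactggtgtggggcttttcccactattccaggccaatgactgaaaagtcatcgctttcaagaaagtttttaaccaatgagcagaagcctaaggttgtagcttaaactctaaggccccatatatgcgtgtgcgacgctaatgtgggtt
Umod: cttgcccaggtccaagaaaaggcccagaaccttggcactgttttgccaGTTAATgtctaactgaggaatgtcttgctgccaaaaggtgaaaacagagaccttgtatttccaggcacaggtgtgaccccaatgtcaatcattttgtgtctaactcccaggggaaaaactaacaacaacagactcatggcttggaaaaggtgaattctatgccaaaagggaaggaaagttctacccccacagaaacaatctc
The TATAAA of Slc12a3 begins 32 bases before the start, and 12.4% of the 32851 promoters of the table held this motif within the same 250 bases. The GTTAAT of Umod begins 202 bases before the start, and 6.43% of promoters held one. Slc12a1 held none of the 4 motifs in this window. Of the 6 members with a promoter in the table, Kcnj1 held AGAACA at 190 and 14 bases before the start and Kcnj10 held it on the minus strand at 191, against 16.1% of promoters, while Scnn1b held AGGTCA on the minus strand at 132, against 14.02% of promoters. A match is a description of letters and not a measured site.

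Of the 8 members, 7 were lower in CBAxB6-TGFbeta kidneys, none was higher and Umod was not called, against 4.57% of all genes called lower and 7.65% called in either direction, and the set was not chosen blind to these data. No member was higher at an unadjusted p under 0.05 either. In all 8 the 3 CBAxB6-TGFbeta arrays lay below the 3 B6-TGFbeta arrays, which held for 13.4% of all genes. The median difference of the 8 was -0.81. In RNA of bulk tissue, fewer cells of a nephron segment and less RNA per cell cannot be told apart. The calls rest on few arrays: they numbered 0, 0 and 1 of 8 without B6-TGFbeta replicate 1, 2 or 3 and 2, 2 and 3 without CBAxB6-TGFbeta replicate 4, 5 or 6, with the gene values summarised afresh, and 3 to 7 when the gene values of all 6 arrays were kept. Under all of these the 8 differences stayed negative. Calls over all genes fell as well: 934 were lower with all 6 arrays. With 1 array left out, 36 to 335 were lower afresh and 310 to 861 with values kept. Unmoderated variances left 0 of 8 called, with adjusted p of 0.0567 to 0.169 for the 7 genes that limma's moderated fit called.

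**Figure D1:**
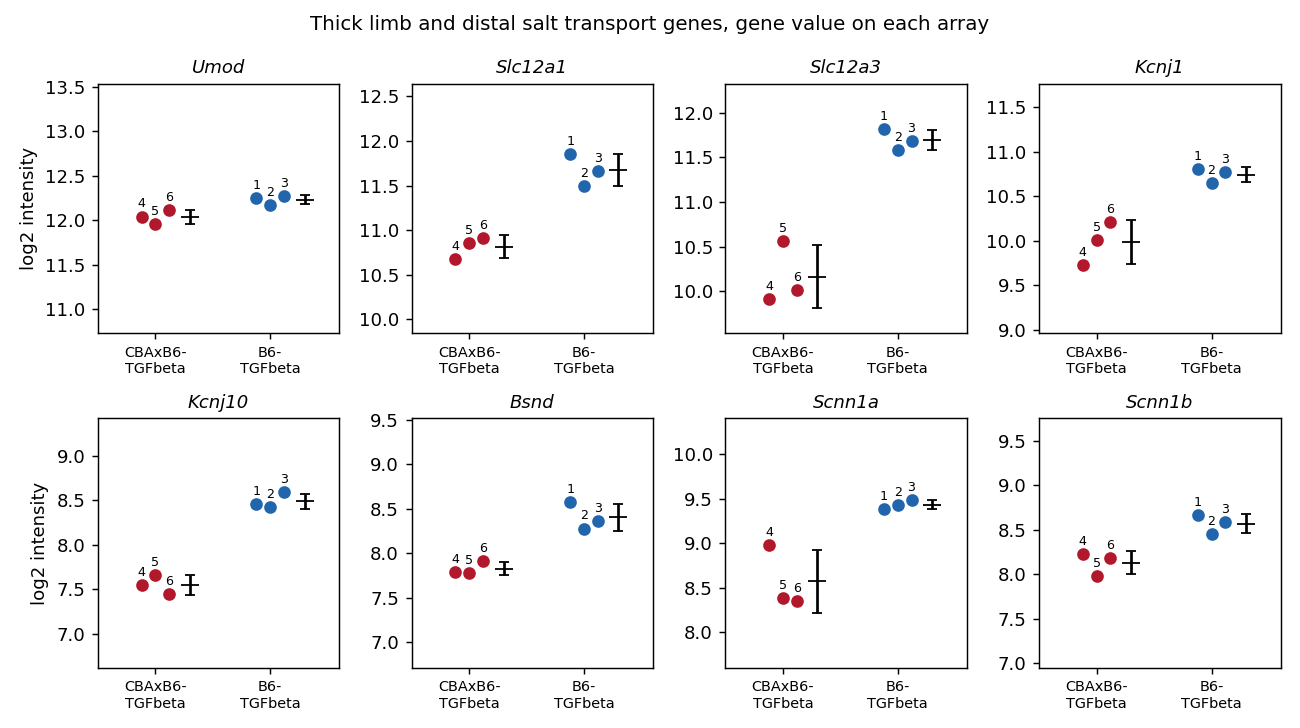
Log2 intensity (vertical axis, each panel spanning the same range) of the 8 genes on each array, with CBAxB6-TGFbeta in red and B6-TGFbeta in blue, replicate numbers beside the points, and bars for the mean and SD of 3 arrays. The red points lie below the blue ones in all 8 panels, with the widest gap for Slc12a3 (10.16 against 11.70) and the narrowest for Umod (12.04 against 12.23).

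Among the members assigned to the thick ascending limb, the apical cotransporter gene was lower by close to 1 log2 unit. The uromodulin gene was not called. Slc12a1, which encodes the furosemide-sensitive cotransporter NKCC2, stood at 10.67, 10.86 and 10.91 on the log2 scale in CBAxB6-TGFbeta replicates 4, 5 and 6, against 11.86, 11.49 and 11.67 in B6-TGFbeta replicates 1, 2 and 3. The lowest B6-TGFbeta value lay clear of the highest CBAxB6-TGFbeta value. The difference was -0.86 (SE 0.12, n = 3 each, limma adjusted p 0.00393), so that the linear signal was 55.2% of that in B6-TGFbeta. Of its 29 exon rows all were lower in mean, from -1.58 to -0.13. In 26 the groups did not overlap, with CBAxB6-TGFbeta below, against 10.7% of all rows. Its brightest row differed by only -0.23 and was not called (adjusted p 0.589 over all rows).

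Kcnj1 encodes ROMK, the apical channel that recycles potassium for NKCC2. It had 9.73, 10.01 and 10.21 on the log2 scale in CBAxB6-TGFbeta and 10.81, 10.65 and 10.77 in B6-TGFbeta. The difference was -0.76 (SE 0.13, n = 3 each, limma adjusted p 0.00979). It rests on 3 exon rows, at -1.48, -0.69 and -0.68, the dimmest row being the one with the largest decrease. CBAxB6-TGFbeta replicate 4 was the lowest array for both Slc12a1 and Kcnj1.

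Bsnd encodes barttin, a small membrane protein needed for basolateral chloride exit, which is also found in the distal convoluted tubule, intercalated cells and inner ear. Its values were 7.79, 7.78 and 7.91 in CBAxB6-TGFbeta and 8.57, 8.28 and 8.36 in B6-TGFbeta on the log2 scale. The CBAxB6-TGFbeta arrays lay within a narrow band below all B6-TGFbeta arrays. The difference was -0.58 (SE 0.11, n = 3 each, limma adjusted p 0.0139), and the 8 exon rows ran from -0.92 to -0.20.

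Umod, the uromodulin gene, had 12.04, 11.96 and 12.12 on the log2 scale in CBAxB6-TGFbeta, against 12.25, 12.18 and 12.27 in B6-TGFbeta. The difference of -0.19 (SE 0.09, n = 3 each) was not called (limma adjusted p 0.279), with a 95% confidence interval from -0.41 to 0.02. The groups did not overlap, but the gap between the nearest arrays was small. A decrease of the size seen for Slc12a1 lies outside that interval, which covers the spread between arrays.

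The exon rows of Umod did not move by 1 amount. Its 9 rows with a mean log2 intensity above 11 differed by -0.34 to -0.04, and the other 4 by -1.42, -0.98, -0.57 and -0.01. The dimmest row was the single Umod row called: it read 6.69, 6.52 and 6.90 in CBAxB6-TGFbeta and 8.18, 7.91 and 8.29 in B6-TGFbeta (limma adjusted p 0.0365 over all rows). Its brightest row, at a B6-TGFbeta mean of 13.07, differed by -0.04. The gene value follows the majority of rows, which are the bright ones, and whether the array's range limits them was not tested.

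**Figure D2:**
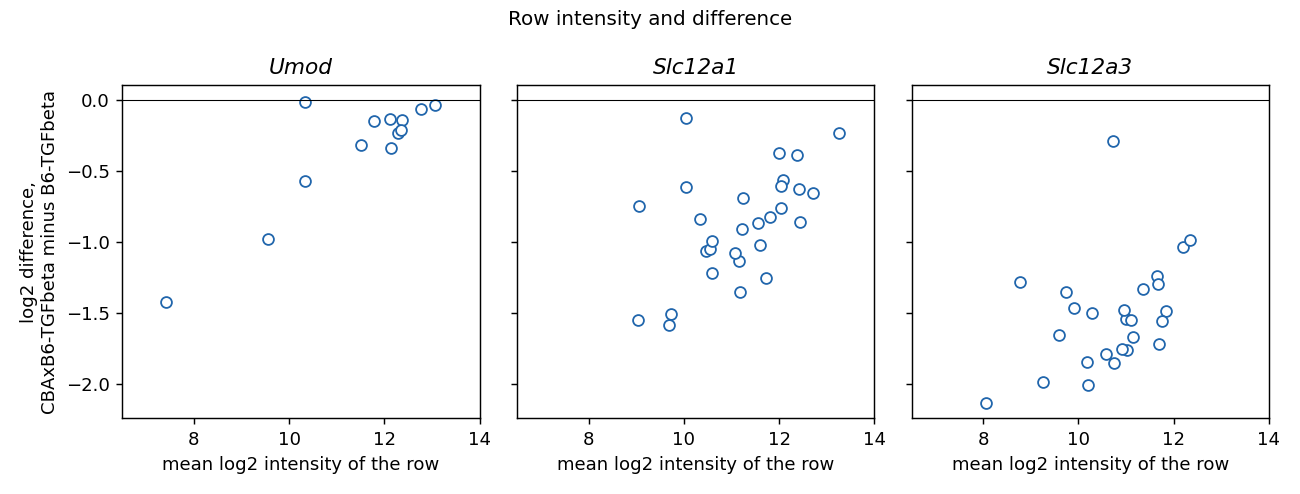
Difference of each exon row (vertical axis, log2) against its mean log2 intensity over the 6 arrays (horizontal axis) for Umod (13 rows), Slc12a1 (29 rows) and Slc12a3 (26 rows). The brightest row stands at -0.04 for Umod, -0.23 for Slc12a1 and -0.99 for Slc12a3, while the dimmest Umod and Slc12a3 rows reach -1.42 and -2.13.

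When the rows of each gene were split by their mean over all 6 arrays, the brighter rows had the smaller median decrease in all members except Scnn1a. A larger decrease itself lowers that mean, so the split favours this order. In Bsnd a row at -0.65 counted as dimmer and a row at -0.25 as brighter, with B6-TGFbeta means of 8.38 and 8.32. A split by the B6-TGFbeta arrays alone was not run, and the order may differ there. For Kcnj1 this set 2 rows against 1. The single brightest row had a larger decrease than the dimmest in Kcnj10 (-1.05 and -0.90) and Bsnd (-0.92 and -0.39). In the other members its decrease was the smaller. In Umod the brighter 7 rows had a median difference of -0.14 and the dimmer 6 rows -0.44. In Slc12a1 the brighter 15 rows had a median difference of -0.69 and the dimmer 14 rows -1.07. In Slc12a3 the brighter 13 rows had -1.48 and the dimmer 13 rows -1.75. In Scnn1a the order was turned, with -0.95 in the brighter 5 rows and -0.68 in the dimmer 4. Among the 724 genes called lower that had at least 6 rows, 57.0% had the smaller decrease in their brighter rows by the same split. Their medians were -0.64 in the brighter and -0.69 in the dimmer rows, and the split favours this order here too.

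Both members assigned to the distal convoluted tubule were lower in the bulk kidney RNA, and Slc12a3 had the largest decrease of the 8. Slc12a3 encodes NCC, the target of thiazide diuretics. It stood at 9.91, 10.57 and 10.01 on the log2 scale in CBAxB6-TGFbeta replicates 4, 5 and 6, against 11.82, 11.59 and 11.68 in B6-TGFbeta replicates 1, 2 and 3. Replicate 5 was the highest CBAxB6-TGFbeta array and still lay about 1 log2 unit below the lowest B6-TGFbeta array. The difference was -1.53 (SE 0.17, n = 3 each, limma adjusted p 0.00108), with a 95% confidence interval from -1.91 to -1.16 and a linear signal at 34.5% of that in B6-TGFbeta. By size it was the decrease of rank 42 among all 20416 genes.

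All 26 exon rows of Slc12a3 were lower without overlap of the groups, from -2.13 to -0.29, against 10.7% of all rows without overlap. Of the 26, 11 were called, against 0.351% of all rows called lower. The row with the largest decrease read 6.62, 7.44 and 6.93 in CBAxB6-TGFbeta and 9.46, 8.89 and 9.03 in B6-TGFbeta. The row with the smallest decrease read 10.63, 10.59 and 10.53 in CBAxB6-TGFbeta and 11.03, 10.68 and 10.89 in B6-TGFbeta.

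Kcnj10 encodes Kir4.1, the basolateral potassium channel of the distal convoluted tubule, which glia also express. It had 7.55, 7.67 and 7.44 on the log2 scale in CBAxB6-TGFbeta and 8.45, 8.42 and 8.59 in B6-TGFbeta. The gap between the groups was wider than the whole range within either. The difference was -0.93 (SE 0.10, n = 3 each, limma adjusted p 0.00113), a linear signal of 52.3% of that in B6-TGFbeta. It was the member called most often when single arrays were left out, in 4 of 6 cases with gene values summarised afresh (without B6-TGFbeta replicate 3 and without each CBAxB6-TGFbeta replicate). Its adjusted p was 0.0630 without B6-TGFbeta replicate 1 and 0.0539 without replicate 2.

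Both members assigned to the aldosterone-sensitive end, subunits of the epithelial sodium channel, were lower, Scnn1a by more than Scnn1b in value. Scnn1a, the pore subunit that a working channel requires, had 8.98, 8.38 and 8.35 on the log2 scale in CBAxB6-TGFbeta, against 9.38, 9.43 and 9.48 in B6-TGFbeta. CBAxB6-TGFbeta replicate 4 lay nearer to the B6-TGFbeta arrays than replicates 5 and 6 did. The difference was -0.86 (SE 0.16, n = 3 each, limma adjusted p 0.0141). Its brightest row by the mean of all 6 arrays differed by -0.35 and its brightest row by the B6-TGFbeta mean by -0.95, and neither row alone was called.

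Scnn1b, the beta subunit, had 8.23, 7.98 and 8.18 in CBAxB6-TGFbeta and 8.67, 8.45 and 8.59 in B6-TGFbeta on the log2 scale. The difference was -0.44 (SE 0.11, n = 3 each, limma adjusted p 0.0433). This was the least firm of the 7 calls: 19 of 24 alternative settings placed it above the threshold. Among its 13 exon rows 12 were negative and 1 stood at 0.003. In 7 the groups did not overlap, with CBAxB6-TGFbeta below, against 10.7% of all rows.

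**Figure D3:**
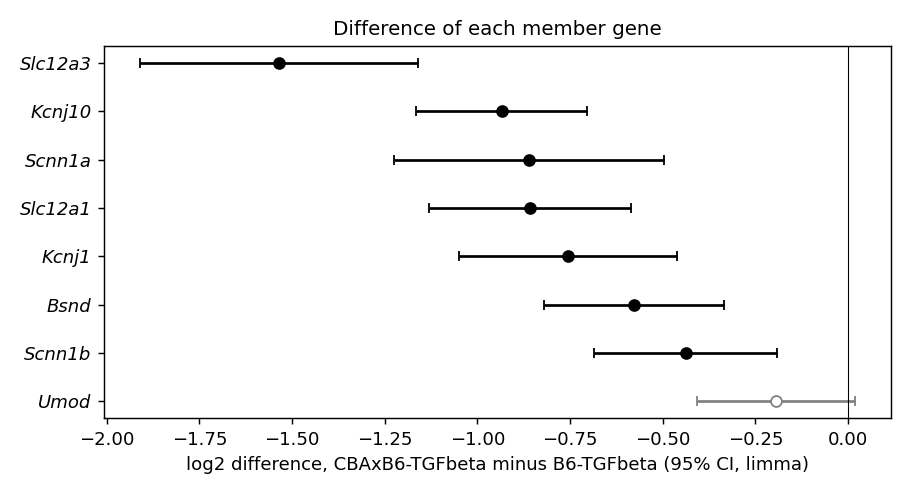
Difference of each gene (horizontal axis, log2, CBAxB6-TGFbeta minus B6-TGFbeta) with its 95% confidence interval from limma, sorted by size. Filled points passed the threshold and the open point, Umod at -0.19, did not, and the intervals of neighbours in this order overlap from Slc12a3 at -1.53 down to Umod.

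Over the 107 exon rows of the 8 genes, 106 were lower in mean in CBAxB6-TGFbeta and 1 was higher. Of these, 15 were called lower, against 0.351% of all rows: 11 of Slc12a3, 2 of Slc12a1, 1 of Kcnj1 and 1 of Umod. In limma none was called higher, also at an unadjusted p under 0.05. At that level 80 were lower, and the share of all rows was not computed. The groups did not overlap in 87 of the 107, always with CBAxB6-TGFbeta below, against 10.7% of all rows. No row was called when any single array was left out. Without the dimmest 25% of rows on the array 35 rows were called, and 47 with trended and robust moderation. The share of all rows called was not computed for these settings. Rows of 1 gene share its transcript and are not replicates.

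Each row was also set against the mean of the other rows of its gene, which asks whether some exons move differently. None of the 107 rows was called in limma, against 0.000482% of all rows tested. At an unadjusted p under 0.05 there were 18, and the share of all rows at that level was not computed. The smallest adjusted p was 0.271, for the dimmest Umod row, whose difference stood -1.16 (SE 0.18) from that of the other rows of its gene.

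**Figure D4:**
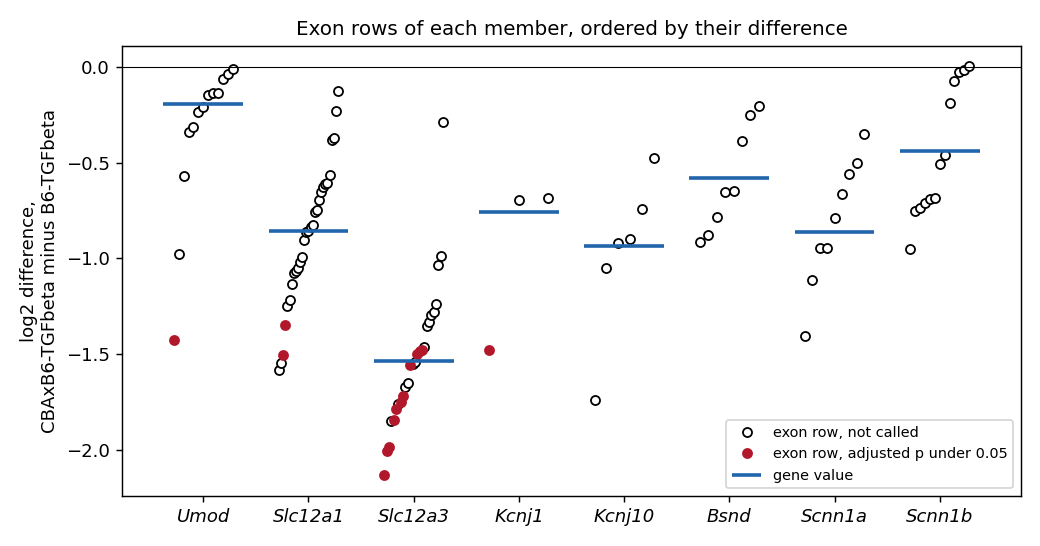
Difference of every exon row (vertical axis, log2) for the 8 genes, ordered by size within each gene, with filled points for the 15 called rows and a bar for the gene value. Of the 107 rows 106 lie below 0 and 1 Scnn1b row stands at 0.003, and 11 of the 15 called rows belong to Slc12a3.

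Members were compared with each other within arrays for 4 pairs, by a two-sided exact permutation test over arrays, where 3 against 3 cannot give a p below 0.10. Slc12a3 minus Slc12a1 averaged -0.65 ± 0.32 in CBAxB6-TGFbeta and 0.02 ± 0.06 in B6-TGFbeta on the log2 scale (SD, n = 3 each; exact p 0.10, adjusted over the 4 pairs 0.20). The groups did not overlap, with every CBAxB6-TGFbeta array below every B6-TGFbeta array. Umod minus Slc12a1 averaged 1.22 ± 0.14 in CBAxB6-TGFbeta and 0.56 ± 0.15 in B6-TGFbeta, again without overlap (SD, n = 3 each; exact p 0.10, adjusted 0.20). On the brightest row of each gene the shift of that pair was 0.19 in place of 0.66. Kcnj10 minus Kcnj1 shifted by -0.18 and Scnn1b minus Scnn1a by 0.42, with overlapping groups (exact p 0.60 and 0.20, adjusted 0.60 and 0.267, n = 3 each). On single bright rows Scnn1b minus Scnn1a depended on the Scnn1a row taken, at -0.16 when rows were ranked over all 6 arrays and 0.44 when ranked over the B6-TGFbeta arrays.

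Partner genes of the thick limb gave a similar direction, with a smaller share called, beside 4.57% of all genes called lower. In a list of 15, 12 were measured, 6 were lower and none was higher in limma (1 was higher at an unadjusted p under 0.05), with a median of -0.50. Egf, which encodes the growth factor made by thick limb and distal convoluted cells, had the largest decrease (-2.72, SE 0.29). Casr, the calcium-sensing receptor that restrains thick limb salt uptake, was lower (-0.67, SE 0.11), as were Ppp1r1a, a protein phosphatase inhibitor (-1.20, SE 0.13), and Cyfip2 (-1.03, SE 0.10).

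In a list of 14 partners of the distal convoluted tubule, 12 were measured, 4 were lower, none was higher in limma (1 at an unadjusted p under 0.05), and the median was -0.27. The lower genes were Calb1, the calcium-binding calbindin (-1.28, SE 0.17), Fxyd2, a small membrane protein of tubule cells (-1.07, SE 0.15), Pvalb, which encodes parvalbumin (-1.04, SE 0.20), and the transcription factor gene Tfap2b (-0.53, SE 0.10). Of 13 measured kinase and ubiquitin regulators of the cotransporters, 3 were lower and none was higher, also at an unadjusted p under 0.05, with a median of -0.16. Wnk4, a kinase that regulates NCC through SPAK, had -1.11 (SE 0.17), Klhl3, the adaptor by which WNK kinases are ubiquitinated, had -0.73 (SE 0.13), and Wnk1 had -0.45 (SE 0.10). Stk39, the SPAK gene itself, was not called at -0.10 (SE 0.11). The counts of both lists stand beside 4.57% of all genes called lower.

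In the aldosterone and sodium channel list 4 of 12 genes were lower, against 4.57% of all genes, with a median of -0.34. None was called higher in limma (1 at an unadjusted p under 0.05). The mineralocorticoid receptor gene Nr3c2 had -0.88 (SE 0.16) and Prss8, whose product prostasin cleaves and activates the sodium channel, had -0.85 (SE 0.13). Hsd11b2, the enzyme that keeps glucocorticoids off the mineralocorticoid receptor, had -0.49 (SE 0.11), and Scnn1g, the gamma subunit beside the 2 members, had -0.51 (SE 0.12). The medians of the 4 lists stand beside 0.02 over all genes, and no call of these lists was found with unmoderated variances or with B6-TGFbeta replicate 3 as its group's only array.

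**Figure D5:**
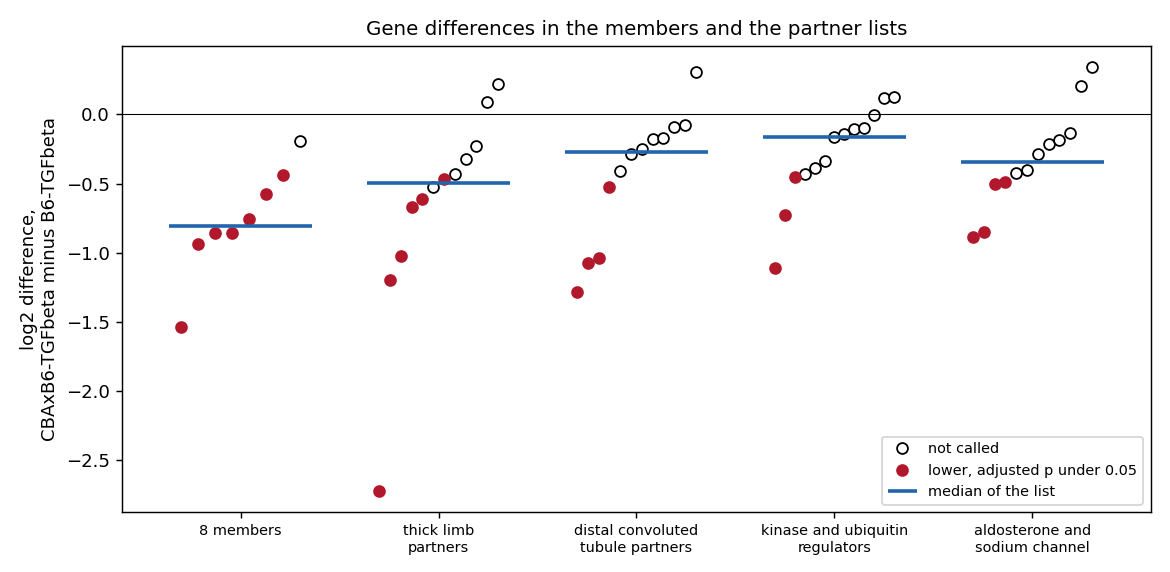
Difference of each measured gene (vertical axis, log2, CBAxB6-TGFbeta minus B6-TGFbeta) in the 8 members and in 4 partner lists, with filled points for called genes and bars for the medians. The members' median of -0.81 lies below the 4 partner medians of -0.50, -0.27, -0.16 and -0.34, and no filled point lies above 0.

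Markers of other cell types moved with the group as well, and their part in the members' differences was not tested. Their counts stand beside 4.57% of all genes called lower and 3.08% called higher. In the proximal tubule list 10 of 12 genes were lower, with a median of -1.62 and a mean log2 level over the list of 9.50 to 10.38 in CBAxB6-TGFbeta arrays and 11.44 to 11.61 in B6-TGFbeta arrays. In the intercalated cell list 4 of 8 were lower, with levels of 8.46 to 8.57 in CBAxB6-TGFbeta and 9.12 to 9.15 in B6-TGFbeta, and in the principal cell list 2 of 7, with 7.57 to 7.89 in CBAxB6-TGFbeta and 8.05 to 8.27 in B6-TGFbeta. Podocyte and endothelial lists had 3 of 6 and 2 of 7 lower. Tubular injury genes were higher in 7 of 10, with levels of 9.03 to 9.67 in CBAxB6-TGFbeta and 7.82 to 7.95 in B6-TGFbeta. Macrophage genes were higher in 6 of 9, with 8.18 to 8.73 in CBAxB6-TGFbeta and 7.27 to 7.57 in B6-TGFbeta, and fibroblast genes in 2 of 7. These counts also rest on few arrays: with 1 array left out and gene values summarised afresh, proximal tubule genes called lower numbered 1 to 8, intercalated cell genes 0 to 3, principal cell genes 0 to 1, podocyte genes 0 to 1 and endothelial genes 0, and those called higher numbered 3 to 6 for tubular injury, 0 to 2 for macrophages and 0 to 2 for fibroblasts. With the gene values of all 6 arrays kept, they were 7 to 12, 2 to 6, 1 to 3, 0 to 2, 0 to 2, 5 to 9, 4 to 6 and 0 to 3 in the same order.

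In the fat list no gene was called in limma, nor had any an unadjusted p under 0.05, and its level ran from 5.96 to 6.46 in CBAxB6-TGFbeta and from 5.89 to 7.92 in B6-TGFbeta, the highest being replicate 2. Without B6-TGFbeta replicate 2, the differences of Slc12a3, Slc12a1 and Kcnj10 were -1.58, -0.90 and -0.96, close to those with it, although none passed with the gene values summarised afresh (adjusted p 0.0600, 0.0581 and 0.0539).

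Genes with the most similar profile over the 6 arrays were sought by the root mean square distance of centred log2 values, among genes with at least 3 rows, as a description. S100g, which encodes the calcium-binding protein calbindin-D9k, and Nccrp1 were nearest to Slc12a3, at 0.13 log2 units each. Slc23a1, an ascorbate transporter gene, and Galnt11 were nearest to Slc12a1 at 0.03 and 0.05. Cpn1 and the carnitine transporter gene Slc22a5 were nearest to Kcnj10 at 0.06 each. Pcdh17 and the estrogen receptor gene Esr1 were nearest to Kcnj1 at 0.01 and 0.04, and Ninl and Cpox to Bsnd at 0.04 and 0.05. Dhrs3 and the proton pump subunit gene Atp6v1b1 were nearest to Scnn1a at 0.09 and 0.10, Gpc4 and Epb4.1l4b to Scnn1b at 0.03 and 0.04, and Tecpr2 and Insc to Umod at 0.01 and 0.02. Among the members the nearest pairs were Bsnd with Scnn1b and Slc12a1 with Kcnj1, at 0.105 and 0.107, and the farthest was Umod with Slc12a3 at 0.715. All these profiles carry the group difference, and the genes named had differences near those of their members, such as -1.67 for S100g and -0.86 for Slc23a1.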

How the data were processed

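Mouse kidney RNA was measured on 6 Affymetrix arrays, and the authors deposited log2 intensities for 241576 exon-level probe sets. The submitters' processing notes name RMA and Partek without versions; the sources used here state neither background correction, scaling nor annotation build. With arrays, precision depends on their number, here 3 per group.

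Rows with 1 symbol in the platform annotation (212097) were summarised to 20416 genes with Tukey's median polish (tolerance 0.01, at most 10 iterations). A further 4475 rows carried more than 1 symbol and 25004 carried no symbol, and neither kind was used. Genes, rows, and rows minus the mean of their gene's other rows (genes with at least 3 rows) were fitted with limma 3.58.1 in R 4.3.3, with group as the only term, moderated variances and two-sided p adjusted over everything tested, at a threshold of 0.05. The limma fits were tried on simulated data, and the permutation test was not. The simulated noise was normal with limma's moderated variances, and 33 or 34 of 20416 genes were changed at each true difference. Of 146 genes called there, 8 were not among the changed genes. At true log2 differences of -0.5, -1 and -2, 18.2%, 88.2% and 100% of changed genes were recovered. For exon rows these shares were 0%, 9.65% and 78.2%. The deviation of a row from its gene was tried only at -2 and 2, with 82% and 70% recovered. Recovery under the conditions of the real data, where 7.65% of genes were called, was not tested.

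All 8 members are named. Of the 4 partner lists, called genes were named by smallest p, up to 4 a list, and the 2 nearest profiles were named for each member. In the cell type and fat marker lists no gene was named by this rule. Lrp2, Stk39 and Ucp1 were named outside this rule after their values were seen. Members and lists were chosen with earlier results of these data known. Alternatives were other scalings, gene summaries, filters, moderations and array weights, and each array left out. Promoter sequences came from a RefSeq table on GRCm38.p6.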

Additional observations from a re-analysis of the deposited data

How the results depend on the processing

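All 8 differences stayed negative under each of 24 alternatives per gene, while calls depended on the processing and the cause was not tested. On the brightest row of each gene alone, ranked over all 6 arrays, 3 members were called lower (Slc12a3, Kcnj10 and Bsnd). Those no longer called were Slc12a1 at -0.23 (limma adjusted p 0.400), Scnn1a -0.35 (0.236), Kcnj1 -0.68 (0.0581) and Scnn1b -0.51 (0.0975). The called genes of the thick limb, distal convoluted tubule, regulator and aldosterone lists numbered 3, 2, 0 and 2, Umod minus Slc12a1 was 0.19, and Scnn1b minus Scnn1a reversed to -0.16. Ranked over the B6-TGFbeta arrays, a choice added after seeing the data, another Scnn1a row was the brightest: it had -0.95 (0.0543), Scnn1b minus Scnn1a was 0.44 and kept its sign, 1 regulator was called, and the other member rows and list counts were those just given, so the reversal rests on the choice of 1 row. Without moderation 0 members and 0 genes of each of the 4 lists were called, with unchanged differences: Slc12a3 -1.53 (adjusted p 0.0959), Slc12a1 -0.86 (0.103), Kcnj1 -0.76 (0.138), Kcnj10 -0.93 (0.0567), Bsnd -0.58 (0.117), Scnn1a -0.86 (0.169) and Scnn1b -0.44 (0.162). With B6-TGFbeta replicate 3 as its group's only array, chosen after seeing the data and assuming that the lone array varies like the others, 0 members and 0 genes of each list were called: Slc12a3 had -1.57 (0.1002), Slc12a1 -0.80 (0.124), Kcnj1 -0.77 (0.237), Kcnj10 -1.01 (0.1002), Bsnd -0.61 (0.195), Scnn1a -0.73 (0.404) and Scnn1b -0.49 (0.403). Scnn1b also missed the threshold after a second quantile normalization (-0.42), median centring (-0.41), without the dimmer 50% of rows (-0.44) and with more polish iterations, added after seeing the data (-0.43). Array quality weights called 5 regulators. Called exon rows of the members numbered 35 without the dimmest 25% of rows and 47 with trended and robust moderation. The shares of all rows called there were not computed. Over all genes, 282 lower and 335 higher were called on the brightest rows, 40 and 23 without moderation, 15 and 25 with B6-TGFbeta replicate 3 alone, and 1269 and 974 with array weights.

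Each array was left out in turn, with gene values summarised afresh or, added after seeing the data, kept from all 6 arrays. Members called lower ranged from 0 to 7, thick limb partners from 1 to 6 and distal convoluted tubule partners from 0 to 5. Regulators ranged from 0 to 4 and aldosterone genes from 0 to 5. Over all genes, 36 to 335 were lower and 21 to 219 higher afresh, and 310 to 861 and 184 to 689 with values kept. Called exon rows of the members were 0 each time, and the share of all rows was not computed. Differences ranged from -1.74 to -1.41 for Slc12a3, -0.95 to -0.70 for Slc12a1, -0.87 to -0.62 for Kcnj1 and -0.99 to -0.88 for Kcnj10. They ranged from -0.64 to -0.49 for Bsnd, -1.06 to -0.66 for Scnn1a and -0.55 to -0.35 for Scnn1b. With gene values summarised afresh, Scnn1b minus Scnn1a ranged from 0.18 to 0.51 and Umod minus Slc12a1 from 0.51 to 0.70. The pairs were not followed with gene values kept. No paired analysis was possible because the groups share no replicate numbers. Signal over background is not analysed here, so no limit of detection is given for the dimmer rows.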
